A study of Mus musculus with 4 samples.

Results

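The cells described here are those of the mouse aorta-gonad-mesonephros region (AGM) that carried transcripts of Wt1 together with other genes of the coelomic lining. They were chosen by their own counts of unique molecular identifiers (UMIs, the tags that mark each captured RNA molecule). Retained cells had 2000 UMIs or more and 1000 genes or more, and mitochondrially encoded genes made up less than 25% of their UMIs. A Wt1-positive cell was a retained cell with Wt1 detected, at least 3 of the 7 genes Wt1, Wt1os, Aldh1a2, Bnc2, Nkain2, Alcam and Upk3b detected, and at least 10 UMIs of these genes per 10000 UMIs of the cell. Cells with at least 3 of 6 endothelial genes (Cdh5, Pecam1, Tie1, Egfl7, Kdr, Esam) or at least 3 of 5 epithelial genes (Pax2, Pax8, Cdh16, Epcam, Cdh1) were left out. The rule found 376 cells among 44168 retained cells.

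The libraries hold CD31-sorted AGM cells of C57BL/6J mouse embryos at E11.5 (embryonic day), separated by how brightly they stained with TMRM, which accumulates in mitochondria according to their membrane potential. The low fraction (MMPlow) and the high fraction (MMPhigh) each had 2 libraries, made with the 10x Genomics 3' kit, version 3. No mutation, transgene or drug distinguishes the groups, and per the labels all of them were sorted on CD31, the surface protein encoded by Pecam1. Transcripts of Pecam1 were found in 53.4% and 56.2% of the other retained MMPlow cells and in 10.7% and 28.4% of those of MMPhigh. Cdh5, the endothelial cadherin, was found in 48.7% and 50.9% of the former and in 1.30% and 2.53% of the latter, so the defining endothelial markers were low in the MMPhigh libraries. The number of embryos behind a library, and whether replicates came from separate litters, is not given in the sources used here, so the tests measure only the spread between these libraries, which may be technical.

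Wt1 encodes a zinc-finger transcription factor of the coelomic epithelium, the sheet of cells that lines the body cavity and later forms the mesothelium of the organs. At the surface of the mesonephros this epithelium thickens into the gonadal ridge, whose cells depend on Wt1, Gata4, Lhx9, Emx2 and Nr5a1, and some coelomic cells leave the sheet and become mesenchyme beneath it. Wt1 is also active in nephrogenic mesenchyme and in podocytes, the filtering cells of the kidney.

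MMPlow 1 and MMPlow 2 gave 120 Wt1-positive cells of 16700 retained and 179 of 19579. MMPhigh 1 and MMPhigh 2 gave 30 of 4403 and 47 of 3486. The retained cells had median depths of 3145, 3741, 3685 and 24044.5 UMIs in these 4 libraries. The Wt1-positive cells had median depths of 4019.5, 4245, 19969.5 and 28853 UMIs, so in both MMPhigh libraries they were deeper than in either MMPlow library. Their summed UMIs came to 540830, 919729, 636672 and 1356509. Between 7 and 89 barcode sequences were shared by a pair of libraries among retained cells, and none among the Wt1-positive cells.

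The values that chose the cells are given as a description. Of the retained cells, 1118 had a Wt1 UMI, 640 of these also had at least 3 panel genes, and 432 reached 10 panel UMIs per 10000. The endothelial genes then removed 29 cells of MMPlow 1, 26 of MMPlow 2 and none of MMPhigh, and the epithelial genes removed 1 cell of MMPhigh 2. Over the cells of each library, the median panel sum per 10000 UMIs came to 24.0 (MMPlow 1), 23.9 (MMPlow 2), 18.5 (MMPhigh 1) and 14.8 (MMPhigh 2). Just inside the threshold, with 10 to 12 panel UMIs per 10000, lay 11, 11, 5 and 11 cells of the 4 libraries, and just outside it, with 8 to 10, lay 6, 9, 5 and 12. The MMPhigh cells lay closer to the threshold than the MMPlow cells.

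Levels below are in CPM, the usual depth-scaled unit: the UMIs of a gene summed over the Wt1-positive cells of a library, scaled to the total of that sum. Wt1 itself stood at 422, 421, 275 and 203 CPM in MMPlow 1, MMPlow 2, MMPhigh 1 and MMPhigh 2, against 3.87 to 4.81 CPM in the other retained cells. Wt1os, an antisense transcript of the same locus, stood at 233, 244, 174 and 152 CPM. In GENCODE vM21 (GRCm38), Wt1 lies at chr2:105126529-105173616 on the plus strand and Wt1os at chr2:105076538-105126510 on the minus strand, with 18 bases between the ends that face each other. Aldh1a2, the enzyme that makes retinoic acid, was at 203, 202, 258 and 220 CPM, and the zinc-finger gene Bnc2 was at 671, 651, 569 and 377 CPM.

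The remaining panel genes varied more between libraries. Alcam, a cell adhesion molecule, was at 540, 770, 509 and 291 CPM. Nkain2, a membrane protein gene, was at 410, 357, 1502 and 313 CPM, and the high value of MMPhigh 1 came from 12 of its 30 cells. Upk3b, a uroplakin of the mesothelial surface, was at 94.3, 90.2, 23.6 and 7.37 CPM. It was detected in 24, 47, 2 and 4 cells, and in MMPhigh 1 a single cell held 80.0% of its UMIs. After thinning to 2000 UMIs, a random draw that gives every cell the same depth, Upk3b was found in 12.5% and 11.7% of the MMPlow cells, in 0 of the 30 cells of MMPhigh 1 and in 2.13% of those of MMPhigh 2. These genes chose the cells, so no test of their differences between gates is given.

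**Figure D1:**
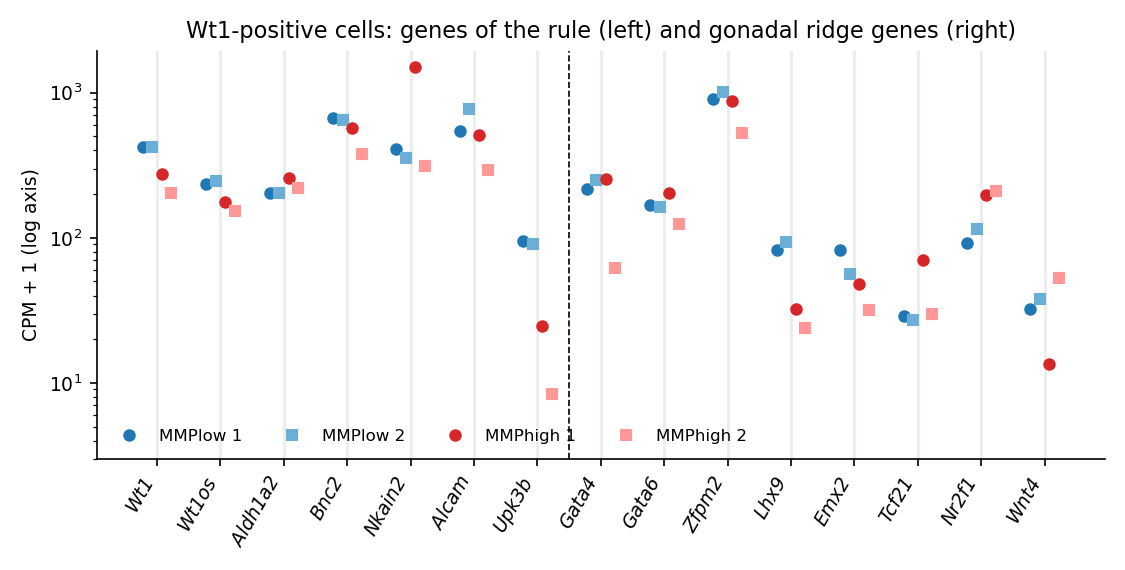
Levels in the Wt1-positive cells of each library, as CPM + 1 on a log axis, of the 7 panel genes that chose the cells (left of the dashed line) and of 8 gonadal ridge genes (right). Each point is 1 library; Upk3b is at 94.3 and 90.2 CPM in the MMPlow libraries and at 23.6 and 7.37 CPM in the MMPhigh libraries, and Gata4 is lowest in MMPhigh 2, at 60.4 CPM.

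Genes outside the rule were next used to check what kind of cell these were. Among genes with at least 50 CPM in every library, the 15 with the largest ratio of mean CPM over the other retained cells included Gata4 (19.4-fold) and Gata6 (16.8-fold), transcription factors of the coelomic lining and gonadal ridge. They also included Zbtb7c (23.2-fold), Fras1 (14.3-fold), a basement membrane protein gene, C1qtnf7 (12.01-fold), Adamts18 (11.3-fold), a secreted metalloprotease gene, and Sulf1 (10.903-fold), which edits heparan sulfate. Magi2 (9.93-fold), a scaffold protein gene, Sfrp1 (9.53-fold), a secreted Wnt antagonist, and Tnc (9.08-fold), the matrix protein tenascin C, completed the better known members. The ratios are descriptions, since the rule picked the cells from the same counts.

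The gonadal ridge list was carried by some cells of all 4 libraries, but not by most. At equal depth, 32 of 120, 50 of 179, 10 of 30 and 9 of 47 cells carried at least 3 genes of this list. Its 15 genes summed to 1670, 1823, 1731 and 1146 CPM, against 530, 572, 308 and 328 CPM in the other retained cells. Zfpm2, the Gata4 cofactor also called Fog2, was the largest member of this sum, at 910, 1009, 870 and 530 CPM. Gata6 was at 168, 161, 203 and 123 CPM. Gata4 was at 216, 250, 251 and 60.4 CPM, and it was detected in 48 of 120, 78 of 179, 12 of 30 and 9 of 47 cells. After thinning, Gata4 was found in 26.7% and 27.9% of the MMPlow cells, in 6 of 30 and 6 of 47 of the MMPhigh cells, and in 0.494% to 2.27% of the other retained cells. Nr5a1, the nuclear receptor of steroid-forming cells, was detected in only 3, 4, 0 and 1 Wt1-positive cells, and all 8 also carried Gata4.

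Genes of differentiated descendants were at or near 0. Cyp17a1 and Cyp21a1, which act in steroid synthesis, had no UMI in any library, and Star, Cyp11a1 and Hsd3b1 stayed at or under 6.28 CPM. The 9 genes of the adrenal and steroid list summed to 29.6, 38.1, 20.4 and 39.1 CPM, against 52.8, 48.2, 32.2 and 37.4 CPM in the other retained cells. Clic5, a marker of podocytes, had no UMI either. Six2, the defining gene of nephron progenitors, was at 0 in 3 libraries and at 5.16 CPM in MMPhigh 2.

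The mesothelium list stood above the other retained cells in MMPlow, but few Wt1-positive cells carried it. The 12 mesothelium genes summed to 470 and 538 CPM in the MMPlow libraries and to 149 and 105 CPM in the MMPhigh libraries. The other retained cells had 140 and 132 CPM in MMPlow and 103 and 101 CPM in MMPhigh. The largest members in MMPlow were Podxl, at 159 and 130 CPM, and Ezr, at 107 and 126 CPM. At equal depth, 5 of 120 and 17 of 179 MMPlow cells carried at least 3 of these genes, as did 0 of 30 and 1 of 47 MMPhigh cells. Msln, the mesothelin gene, was at 0 in every library. The cells are therefore called Wt1-positive cells below, and not mesothelial cells.

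Within the MMPlow libraries, the cells with and without an Upk3b UMI differed in the company Upk3b kept, which is a description since Upk3b is a gene of the rule. Cells with Upk3b had mesothelium sums of 849 and 987 CPM in MMPlow 1 and 2, and cells without it had 361 and 351 CPM. Gata4 was detected in 13 of 24 and 32 of 47 cells with Upk3b, so the mesothelial and the ridge marker were often in the same cell. Lrrn4, another mesothelial membrane gene, was detected in 5 and 14 cells, of which 1 and 12 had Upk3b. Pdgfra, the receptor that marks mesenchyme, was detected in 8 of 24 and 9 of 47 cells with Upk3b, and in 38 of 120 and 52 of 179 cells in all. In the MMPhigh libraries, only 2 and 4 cells had Upk3b, and no comparison was made there.

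The first comparison asked whether the 2 gates held different shares of Wt1-positive cells. The share of retained cells was 0.719% in MMPlow 1 (exact 95% binomial interval 0.596 to 0.859%), 0.914% in MMPlow 2 (0.786 to 1.06%), 0.681% in MMPhigh 1 (0.460 to 0.971%) and 1.35% in MMPhigh 2 (0.992 to 1.79%). These intervals cover counting error only. MMPlow had a mean of 0.816% ± 0.138 (SD, n = 2). MMPhigh had a mean of 1.01% ± 0.472 (SD, n = 2), and the groups overlapped (exact two-sided permutation test p = 1.00, with 0.333 the smallest p that 2 against 2 libraries can give).

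The order of the gates in this share turned with depth and with the panel. When the rule was applied to cells thinned to 2000 UMIs, 71, 90, 5 and 10 cells met it, or 0.425%, 0.460%, 0.114% and 0.287%, and both MMPhigh values lay below both MMPlow values (exact permutation p = 0.333). With at least 20 panel UMIs per 10000 the shares were 0.461%, 0.572%, 0.318% and 0.258%, again lower in MMPhigh. Among cells with at least 5000 UMIs the shares were 1.14%, 1.12%, 1.66% and 1.45%, higher in MMPhigh. Without MMPhigh 2, the deepest library, the mean difference was -0.14 percentage points in place of 0.20. No direction of the share is therefore given.

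**Figure D2:**
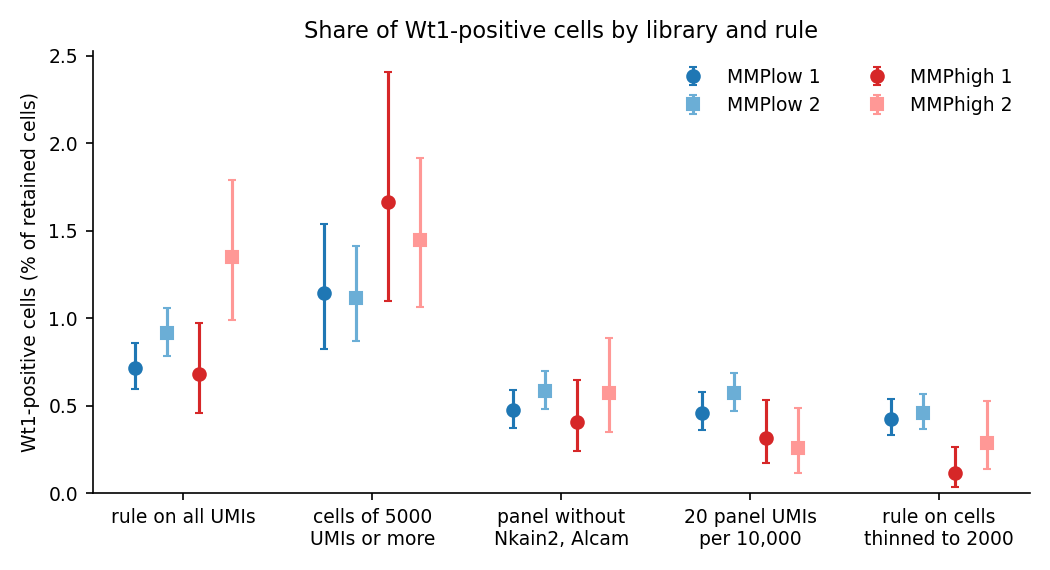
Wt1-positive cells as a percentage of retained cells in each library, under the rule and under 4 changes of it; points are libraries and bars are exact 95% binomial intervals. MMPhigh 2 is highest under the rule, at 1.35%, while both MMPhigh libraries lie below both MMPlow libraries with 20 panel UMIs per 10000 and with thinned cells.

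The second comparison asked which genes differed between the gates within the Wt1-positive cells. UMIs were summed per library and tested with edgeR's quasi-likelihood test. The genes of the rule entered the fit and its adjustment of p, but the counts below leave them out. Of 9518 genes tested, 391 (4.11%) passed an adjusted p of 0.05, 169 (1.78%) higher in MMPhigh and 222 (2.33%) lower. An unadjusted p under 0.05 was reached by 1615, and DESeq2 called 153 genes, 131 of them among the 391. The median log2 difference over all tested genes was -0.00. Without MMPlow 1 there were 32 calls and without MMPlow 2 there were 2, while leaving out MMPhigh 1 or MMPhigh 2 gave 1007 and 747.

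A fit with a library left out has a single library in that group. Its spread then comes from the other group alone, so its counts of calls, here and below, say nothing of the spread within that group. The MMPhigh sums rest on few cells, and the number of cells behind a value is given for several of the genes named.

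Of 12 mesothelium genes, 9 were tested, 5 fell in MMPhigh, none rose and 4 did not pass, with a median log2 difference of -1.75. Over all tested genes, 2.33% were called lower. The list was chosen with earlier results of these data known. Podxl, the sialomucin podocalyxin of the apical cell surface, was at 159 and 130 CPM in MMPlow 1 and 2 and at 1.57 and 11.8 CPM in MMPhigh 1 and 2. The groups did not overlap, as was true of 48.4% of tested genes, and the log2 difference was -4.08 (SE 0.42, adjusted p = 0.00333). Podxl is also expressed by endothelium, and its MMPhigh UMIs came from 1 of 30 and 7 of 47 cells. In the other retained cells Podxl was also lower in MMPhigh, at 69.6, 61.7, 11.6 and 15.7 CPM.

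Ezr, which encodes ezrin, the link between such surface proteins and the cytoskeleton, was at 107, 126, 44.0 and 32.4 CPM, a fall of 1.65 on the log2 scale (SE 0.23, adjusted p = 0.00684). Bnc1, the zinc-finger relative of Bnc2, was at 27.7, 39.1, 9.42 and 10.3 CPM (log2 difference -1.75, SE 0.38, adjusted p = 0.0350). Gpm6a, a membrane glycoprotein of mesothelium and of neurons, was at 25.9, 39.1, 3.14 and 9.58 CPM (-2.16, SE 0.47, adjusted p = 0.0350). Muc16, the large mucin of mesothelial surfaces, was at 24.0, 22.8, 3.14 and 0 CPM (-4.32, SE 0.81, adjusted p = 0.0181), and a single cell gave the UMIs of MMPhigh 1. In MMPhigh 1 and 2, Bnc1 was detected in 4 and 5 cells, and Gpm6a in 1 and 5. All 5 genes were lower in both MMPhigh libraries than in either MMPlow library.

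The members of the list that did not pass were Krt19, Krt18, Krt8 and Rspo1. Krt19, a simple-epithelium keratin, was at 14.8, 20.7, 0 and 3.69 CPM (adjusted p = 0.0612), and Krt18 was at 37.0, 51.1, 36.1 and 8.85 CPM (adjusted p = 0.384). Without the cells that carried an Upk3b UMI, 1 of 7 tested mesothelium genes was lower and the median was -1.39. Without MMPhigh 1 and MMPhigh 2 in turn, the median was -2.03 and -1.73. Without either MMPlow library none of the list passed, with medians of -1.95 and -1.48, and DESeq2 called 2 of 11. In cells thinned to equal depth only 2 genes of the list could be tested, and 1 of them was lower.

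Of the 8 genes that define Pdgfra-type mesenchyme below, 2 rose in MMPhigh, none fell and 6 did not pass, with a median of 0.38, where 1.78% of all tested genes were called higher. Without MMPhigh 1 the median was 0.12, and without MMPhigh 2 it was 0.70. Without MMPlow 1 and MMPlow 2 in turn it was 0.17 and 0.59. DESeq2 called 1 of the 8, and in thinned cells none of the 5 tested passed. Of the genes named for passing both this test and that of the difference from mesenchyme, Prrx1 is on that list, while Ebf1 and Dnm3os are not. Prrx1, a homeobox gene of limb and body wall mesenchyme, was at 35.1, 56.5, 148 and 141 CPM, a log2 difference of 1.61 (SE 0.24, adjusted p = 0.00708). Ebf1, a transcription factor of mesenchymal and B lineage cells, was at 148, 117, 393 and 533 CPM (1.84, SE 0.20, adjusted p = 0.00176). Dnm3os, a noncoding RNA that hosts microRNAs of mesenchyme, was at 61.0, 65.2, 151 and 136 CPM (1.18, SE 0.19, adjusted p = 0.0102). Each of these was higher in both MMPhigh libraries. Ebf1 was detected in 33, 41, 18 and 25 cells, and single cells held 35.0%, 11.1%, 38.8% and 26.7% of its UMIs. Prrx1 was detected in 14, 35, 14 and 30 cells, with 26.6% of its MMPhigh 1 UMIs in a single cell. Dnm3os was detected in 29, 52, 23 and 34 cells.

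Within the list for the transition from epithelium to mesenchyme, 11 of 12 genes were tested, 2 rose and none fell. The median was 0.69, and 1.78% of all tested genes were called higher. Without MMPhigh 1 and MMPhigh 2 in turn, the median was 0.57 and 0.86. Without MMPlow 1 and MMPlow 2 in turn it was 0.76 and 0.69. Cdh2, the N-cadherin of both mesenchyme and coelomic cells, was at 301, 365, 532 and 536 CPM (0.69, SE 0.15, adjusted p = 0.0387). Pdgfra was at 124, 101, 228 and 171 CPM (0.84, SE 0.20, adjusted p = 0.0476). Pdgfra was detected in 38 of 120, 52 of 179, 24 of 30 and 32 of 47 cells. At equal depth it was found in 21.7%, 15.6%, 23.3% and 34.04%, so much of the gap in detection was absent among thinned cells. Snai2, a repressor of epithelial cadherin, was at 29.6, 29.4, 53.4 and 61.2 CPM (adjusted p = 0.0713). DESeq2 called none of this list, nor did the fit on thinned cells.

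**Figure D3:**
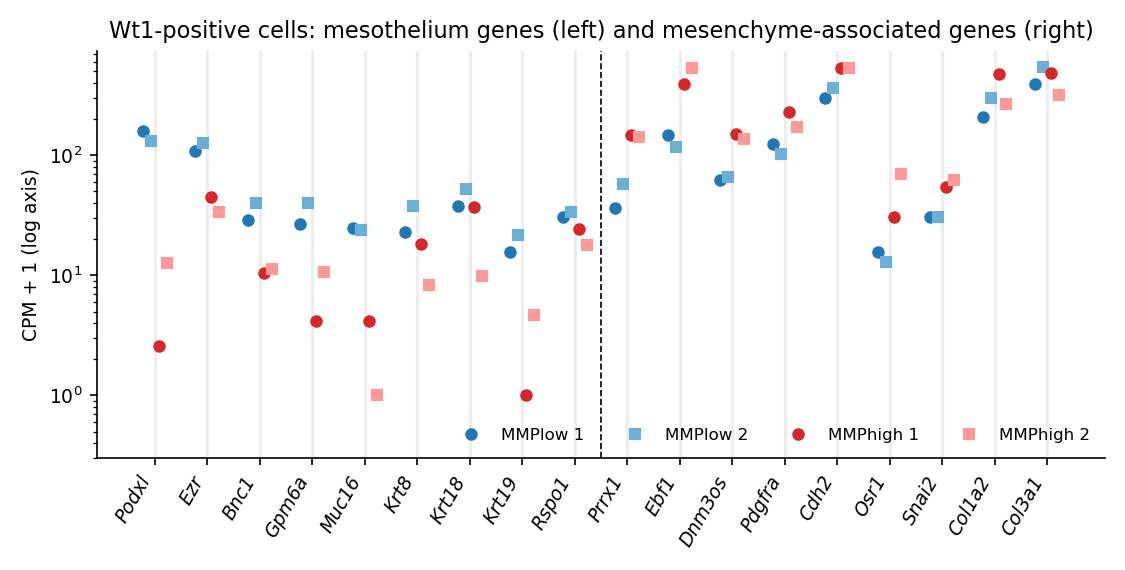
Levels in the Wt1-positive cells of each library, as CPM + 1 on a log axis, of 9 mesothelium genes (left of the dashed line) and 9 genes associated with mesenchyme (right). Podxl, Ezr, Bnc1, Gpm6a and Muc16 are lower, and Prrx1, Ebf1, Dnm3os, Pdgfra, Cdh2 and Osr1 higher, in both MMPhigh libraries; the other genes drawn did not pass the test.

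Most gonadal ridge genes did not pass the test. Of 15 genes in the list, 11 were tested, 1 rose and 1 fell, with a median of -0.10. Of all tested genes, 1.78% were called higher and 2.33% lower. Without MMPhigh 1 the median was -0.61, and without MMPhigh 2 it was -0.13. Without either MMPlow library, and with DESeq2, none passed. Lhx9, a LIM homeobox gene required for the gonad to form, was at 81.4 and 92.4 CPM in MMPlow and at 31.4 and 22.9 CPM in MMPhigh, a log2 difference of -1.72 (SE 0.26, adjusted p = 0.00804). It was detected in 22, 35, 5 and 7 cells, and single cells held 55.0% and 45.2% of its UMIs in MMPhigh 1 and 2. Nr2f1, a nuclear receptor gene of mesenchyme and neurons, was at 90.6, 113, 195 and 209 CPM (0.99, SE 0.18, adjusted p = 0.0157). It also followed the gate in the other retained cells, at 22.5, 23.3, 101 and 118 CPM, and in Pdgfra-type mesenchyme, at 103, 122, 200 and 198 CPM.

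Of the 4 ridge genes with the highest levels, Nr2f1 passed, and Zfpm2, Gata4 and Gata6 did not. Zfpm2 had a log2 difference of -0.45 (SE 0.22, adjusted p = 0.371), Gata6 of -0.03 (SE 0.23, adjusted p = 0.972) and Gata4 of -0.66 (SE 0.85, adjusted p = 0.795). The Gata4 value was set by MMPhigh 2, and it was 0.11 without that library. Without MMPhigh 1 it was -1.93, in a fit with a single MMPhigh library. Emx2, a homeobox gene of the ridge and mesonephros, was at 81.4, 55.5, 47.1 and 31.0 CPM (-0.82, SE 0.30, adjusted p = 0.187). Tcf21, a gene of visceral mesenchyme, was at 27.7, 26.1, 69.1 and 28.8 CPM (0.78, SE 0.44, adjusted p = 0.432).

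Among nephron progenitor genes, 4 of 9 were tested and 1 rose, where 1.78% of all tested genes were called higher. Without MMPhigh 1, 3 of 5 rose (median 2.43), and without MMPhigh 2 (median 0.75) or either MMPlow library none passed. Osr1, an early gene of intermediate and lateral mesoderm, was at 14.8, 11.96, 29.8 and 69.3 CPM (2.01, SE 0.46, adjusted p = 0.0460), a call lost under 10 of 14 alternatives. Eya1, a transcriptional cofactor of kidney development, was at 9.24, 31.5, 51.8 and 141 CPM (2.18, SE 0.74, adjusted p = 0.269), and a single cell held 81.8% of its UMIs in MMPhigh 1. None of the 4 tested podocyte genes passed. With DESeq2, and with no filter on low counts, 1 of 6 rose, and in thinned cells 1 of 1 did. Cdkn1c, a cell cycle inhibitor that is not limited to podocytes, had 632, 758, 1714 and 964 CPM.

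Among genes that passed, did not overlap, had at least 50 CPM in the higher group and lay outside the lists of other cell types, Mapk10, Igfbpl1 and Gfra1 had the largest rises. Mapk10, the neuronal JNK kinase, was at 7.40, 9.79, 91.1 and 139 CPM (3.72, SE 0.35, adjusted p = 0.00122), and a single cell of MMPhigh 1 held 87.9% of its UMIs there. Igfbpl1, expressed in developing neurons, was at 1.85, 7.61, 69.1 and 42.0 CPM (3.29, SE 0.51, adjusted p = 0.00873), from 7 and 6 MMPhigh cells. Gfra1, a receptor for the neurotrophic factor GDNF, was at 11.1, 9.79, 72.3 and 68.6 CPM (2.76, SE 0.31, adjusted p = 0.00189). Elavl2, an RNA-binding protein of neurons, rose by 2.06, Rmst, a neural noncoding RNA, by 1.94, and Sgcz, a sarcoglycan gene, by 2.01 on the log2 scale, with adjusted p of 0.00333, 0.00805 and 0.00925.

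These rises moved together with a pan-neuronal list. Its 8 genes summed to 102 and 213 CPM in the MMPlow Wt1-positive cells and to 564 and 882 CPM in the MMPhigh ones. In the other retained cells of the same libraries they summed to 277, 268, 2091 and 2562 CPM. Of the 8, 5 rose, among them Tubb3, Elavl3, Elavl4 and Dcx, where 1.78% of all tested genes were called higher. The list's median was 2.33. With Nkain2 and Alcam left out of the panel, none of the 4 tested genes passed, with a median of 1.66. Without either MMPlow library none passed. At equal depth, 0 of 120, 2 of 179, 4 of 30 and 6 of 47 Wt1-positive cells carried at least 3 of these genes. Without those 12 cells, 265 genes passed in place of 391. The pan-neuronal genes themselves cannot be read in that fit, since they chose the cells left out. Elavl2 was detected in 10, 15, 12 and 23 cells of the 4 libraries.

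**Figure D4:**
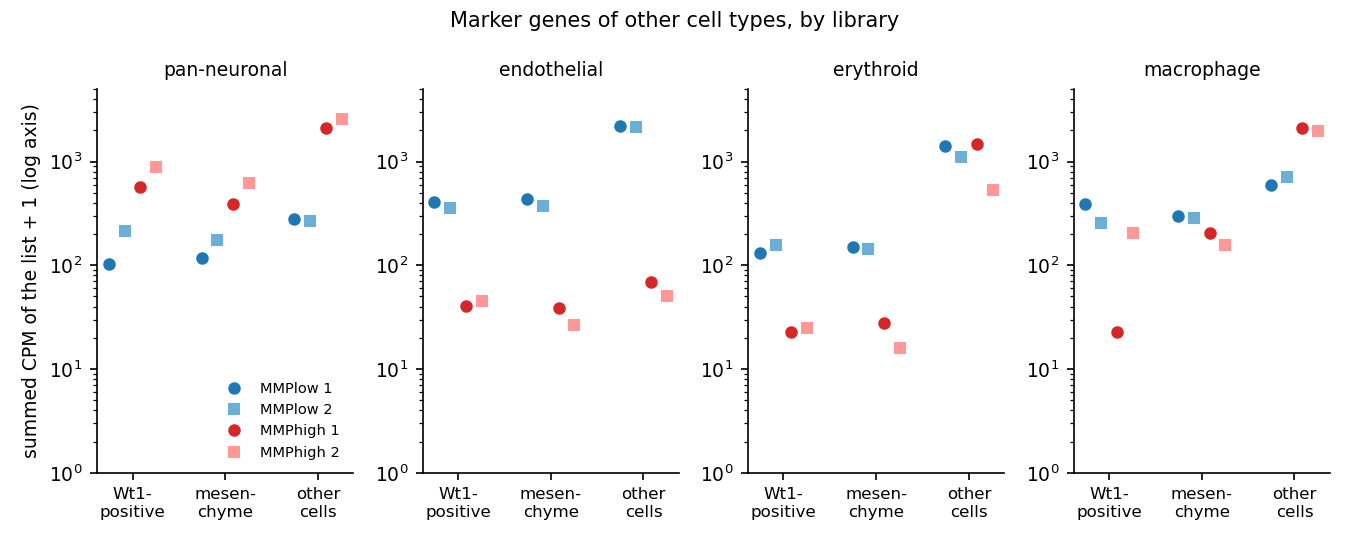
Summed CPM + 1, on a log axis, of 4 lists of marker genes of other cell types, in the Wt1-positive cells, in Pdgfra-type mesenchyme and in the other retained cells of each library. In the Wt1-positive cells the pan-neuronal sum is higher and the endothelial and erythroid sums are lower in both MMPhigh libraries, as they are in the mesenchyme of the same libraries.

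Among genes chosen in the same way, the largest falls included those of granulocyte, platelet and endothelial genes. S100a9, S100a8 and Stfa1, genes of neutrophils, had no UMI in the MMPhigh Wt1-positive cells. Against a floor of 3 UMIs over the group, they were at least 46.4-fold, 38.7-fold and 42.8-fold lower in MMPhigh. S100a9 was at 77.7 and 65.2 CPM in the MMPlow Wt1-positive cells. In the other retained cells it was at 126 and 123 CPM in MMPlow and at 33.0 and 11.3 CPM in MMPhigh. Pf4, a chemokine of platelets and megakaryocytes, was at 257, 353, 10.99 and 7.37 CPM (-5.12, SE 0.28, adjusted p = 5.54e-05). It was detected in 77 of 120 and 132 of 179 MMPlow cells. In the other retained cells Pf4 was at 729, 873, 433 and 390 CPM, and in Pdgfra-type mesenchyme at 270, 324, 18.7 and 13.1 CPM. The log2 differences of Ctla2a, a protease inhibitor gene of endothelium and blood, and of Mir142hg, the host of a blood microRNA, were -5.55 and -4.16.

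Endothelial genes outside the rule fell as well. Of 10 in the list, 8 were tested, 7 fell and none rose, where 2.33% of all tested genes were called lower. The median was -3.53. Without MMPlow 1, 3 of 8 fell, and without MMPlow 2 none of 7. They summed to 407, 353, 39.3 and 44.2 CPM in the Wt1-positive cells and to 2200, 2170, 67.7 and 49.96 CPM in the other retained cells. At equal depth, 15 of 299 MMPlow and 0 of 77 MMPhigh Wt1-positive cells carried at least 3 of these genes, after the rule had removed cells with 3 other endothelial genes. The 4 tested erythroid genes also fell, but none passed without either MMPlow library, with sums of 129, 155, 21.99 and 23.6 CPM. The macrophage list had 385, 254, 21.99 and 206 CPM, and none of its 7 tested genes passed. At equal depth, 10 of 120, 24 of 179, 0 of 30 and 1 of 47 cells carried at least 2 macrophage genes. Without MMPhigh 2 the median of the macrophage list was -4.48 in place of -1.13. The blood list then had a median of -4.23 in place of -1.37. Without the cells that carried at least 2 endothelial, erythroid, macrophage or blood genes, 365 genes passed, and 7 of 11 mesothelium genes were lower.

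Pecam1, the gene of the protein on which the cells were sorted, was at 46.2, 23.9, 0 and 2.95 CPM in the Wt1-positive cells. It was detected in 22 of 120, 21 of 179, 0 of 30 and 3 of 47 cells, against 53.4%, 56.2%, 10.7% and 28.4% of the other retained cells. Pecam1 is a gene of the rule, which removed 29 and 26 cells for their endothelial genes in MMPlow and none in MMPhigh. The part of reads from other cells in these endothelial and blood values was not tested.

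Mt1, a metallothionein gene, was at 137, 116, 6.28 and 7.37 CPM (-4.12, SE 0.29, adjusted p = 0.000299). It did not follow the other retained cells, which had 231, 215, 288 and 393 CPM, and it was lower in the MMPhigh mesenchyme too, at 116, 68.8, 9.93 and 12.1 CPM. Mt1 and Pf4 were the only named genes that kept their call under all 17 alternatives.

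The third comparison asked whether a difference between the gates was other than that in a second cell type of the same libraries. Pdgfra-type mesenchyme was defined by Pdgfra and 7 further genes (Col1a1, Col1a2, Col3a1, Twist1, Prrx1, Postn, Dcn) under the same thresholds, without Wt1-positive cells, and had 399, 506, 199 and 294 cells. Its own test called 1183 of 12648 genes (9.35%), 405 higher (3.2%) and 778 lower (6.15%) in MMPhigh. Both tests use the same libraries. Of the 169 genes that rose in Wt1-positive cells, 69 also rose in mesenchyme, 1 fell, and 98 did not pass. Of the 222 that fell, 142 also fell there, 3 rose and 66 did not pass.

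The difference of the differences passed the test for 40 of 12008 genes (0.333%), 17 higher (0.142%) and 23 lower (0.192%) in Wt1-positive cells, and 804 had an unadjusted p under 0.05. Among them, 14 had also risen and 15 had also fallen in the Wt1-positive cells. Without MMPlow 1 or MMPlow 2 there were 16 and 13 calls, and without MMPhigh 1 or MMPhigh 2 there were 207 and 393. In thinned cells there were 19, of which 8 were among the 40.

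Of the mesenchyme genes described above, Ebf1 was at 313, 375, 387 and 462 CPM in mesenchyme, so the gates differed by 0.33 there and by 1.84 in Wt1-positive cells (difference 1.52, adjusted p = 0.000899). Prrx1 was at 311, 332, 327 and 387 CPM in mesenchyme (difference 1.45, adjusted p = 0.00413), and Dnm3os was at 183, 248, 194 and 230 CPM (difference 1.20, adjusted p = 0.0157). In the other retained cells Ebf1 was at 299.9, 286, 628 and 781 CPM, again higher in MMPhigh. In MMPlow, all 3 genes were below the level of mesenchyme in the Wt1-positive cells. Pdgfra was at 404, 348, 227 and 239 CPM in mesenchyme (difference 1.49, adjusted p = 0.000899). Pdgfra and Prrx1 helped to choose the mesenchyme, so its side of these differences is not independent of that choice.

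Further rises beyond mesenchyme were those of Ank3, Lingo2 and Egfem1. Lingo2, a leucine-rich repeat membrane protein gene, was at 38.8, 34.8, 228 and 166 CPM in Wt1-positive cells and at 24.7, 24.9, 15.3 and 23.7 CPM in mesenchyme (difference 2.70, adjusted p = 0.00413). In the other retained cells Lingo2 was at 5.73, 4.60, 12.2 and 13.9 CPM, again higher in MMPhigh. It was detected in 8, 13, 7 and 12 Wt1-positive cells, and single cells held 36.6% and 24.4% of its UMIs in MMPhigh 1 and 2. Ank3, which encodes the membrane adaptor ankyrin G, was at 135, 178, 449 and 596 CPM against 288, 291, 385 and 595 CPM (difference 0.98, adjusted p = 0.0238). In the other retained cells Ank3 also followed the gate, at 128 and 118 CPM in MMPlow and 626 and 788 CPM in MMPhigh. Egfem1 was at 16.6, 7.61, 45.5 and 60.4 CPM (difference 2.57, adjusted p = 0.00939), from 3 to 5 cells in each library. Single cells held 51.7% and 58.5% of its UMIs in MMPhigh 1 and 2. In the other retained cells it was at 43.7, 45.6, 82.8 and 114 CPM, also higher in MMPhigh.

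Lhx9 had the opposite direction in the 2 cell types. In mesenchyme it was at 6.89, 8.56, 15.3 and 24.4 CPM, a rise of 1.41 on the log2 scale, while it fell by 1.72 in Wt1-positive cells (difference -3.13, adjusted p = 0.000899). In the other retained cells it was at 3.76, 3.49, 24.1 and 27.2 CPM. Bnc1 and Gpm6a of the mesothelium list also differed, by -2.82 and -3.35 (adjusted p = 0.0404 and 0.0161). Podxl did not pass this test, at -1.23 (adjusted p = 0.727). It was lower in MMPhigh mesenchyme as well, at 27.5, 16.3, 2.71 and 2.83 CPM.

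There were 5 other named falls beyond mesenchyme. Cntn5, a contactin, was at 85.1, 121, 7.85 and 15.5 CPM in Wt1-positive cells, and at 5.16, 5.44, 3.01 and 30.8 CPM in mesenchyme (difference -4.90, adjusted p = 0.000466). Gabrb1, a GABA receptor subunit gene, was at 40.7, 87.0, 18.8 and 7.37 CPM, against 1.63 to 3.53 CPM in the other retained cells (difference -2.39, adjusted p = 0.0203). Ppp2r2b, a regulatory subunit gene of phosphatase 2A, was at 192, 276, 91.1 and 87.7 CPM (difference -1.54, adjusted p = 0.00120). Wdr17 was at 72.1, 125, 9.42 and 7.37 CPM (difference -2.26, adjusted p = 0.0314). It fell in mesenchyme too, though by less, with a log2 difference of -1.31 (edgeR adjusted p = 0.0115). In the other retained cells Wdr17 also followed the gate, at 33.4, 24.8, 5.55 and 5.13 CPM. Rab11fip2, a gene of membrane recycling, was at 99.8, 80.5, 44.0 and 26.5 CPM (difference -1.51, adjusted p = 0.0128). In MMPhigh 1 and 2, Cntn5 was detected in 3 and 5 cells, Gabrb1 in 5 and 3, and Wdr17 in 3 and 8. In MMPlow mesenchyme Rab11fip2 was at 83.2 and 74.7 CPM, close to its level in the MMPlow Wt1-positive cells.

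**Figure D5:**
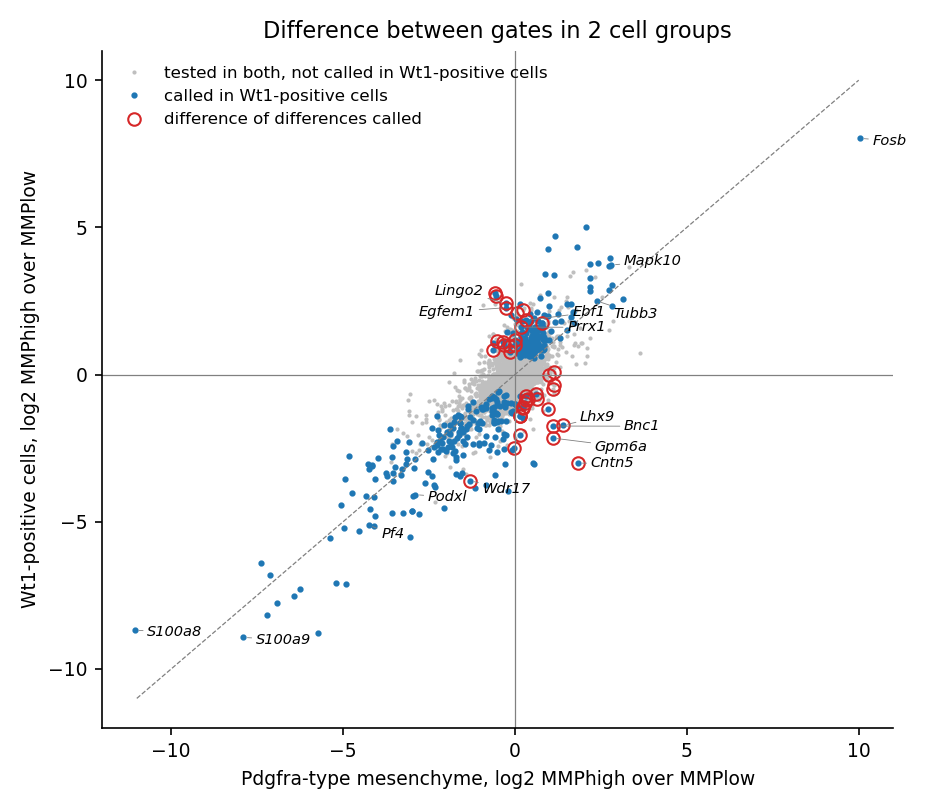
Log2 difference of MMPhigh over MMPlow in Wt1-positive cells (vertical) against that in Pdgfra-type mesenchyme (horizontal), for 9495 genes tested in both; blue points passed the test in Wt1-positive cells and red circles passed the test of the difference between the 2 cell types. S100a9, Pf4 and Mapk10 lie near the dashed line of equal change, while Ebf1, Lingo2, Lhx9 and Cntn5 lie off it; both axes use the same 4 libraries, so the spread along the line is no independent evidence.

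Signals that such cells could send to the blood-forming endothelium were described from a fixed list of 26 secreted factors and antagonists. Of 20 tested, 2 rose and 1 fell, where 1.78% of all tested genes were called higher and 2.33% lower. The median was 0.48. Without MMPhigh 2 it was 0.61, and without MMPhigh 1 it was 0.11. Without MMPlow 1 and MMPlow 2 in turn it was 0.14 and 0.62. Ptn, the heparin-binding growth factor pleiotrophin, was among the highest, at 1143, 1160, 1921 and 1693 CPM (0.66, SE 0.13, adjusted p = 0.0240). Slit3, a guidance ligand, was at 251, 336, 446 and 601 CPM (0.84, SE 0.20, adjusted p = 0.0448). Fgf9, a growth factor of mesothelium and of the gonad, was at 42.5, 23.9, 6.28 and 8.11 CPM (-2.06, SE 0.45, adjusted p = 0.0356), from 4 cells in each MMPhigh library.

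The classical factors of the stem cell niche did not pass. Kitl, the ligand of the Kit receptor, was at 75.8, 120, 31.4 and 67.1 CPM (-0.91, SE 0.36, adjusted p = 0.258). Cxcl12, the chemokine that holds stem cells in place, was at 120, 90.2, 196 and 138 CPM (0.68, SE 0.23, adjusted p = 0.145), or 5.10 times the other retained cells on average. Bmp4 was at 31.4, 37.0, 70.7 and 64.9 CPM (0.97, SE 0.25, adjusted p = 0.0609), and Igf2 at 438, 459, 443 and 286 CPM (-0.30, SE 0.20, adjusted p = 0.520). Slit2 was at 429, 406, 1143 and 640 CPM (1.10, SE 0.27, adjusted p = 0.0889). Slit2, Bmp4, Kitl and Cxcl12 each passed under some of the 17 alternatives. Over these, Slit2 ranged from 0.65 to 1.68 and Bmp4 from 0.34 to 3.10 on the log2 scale. Kitl ranged from -1.67 to -0.54 and Cxcl12 from 0.41 to 1.10.

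Retinoic acid genes beyond Aldh1a2 were mostly level between the gates. Of 17 in the list, 10 were tested, 1 rose and none fell, where 1.78% of all tested genes were called higher. The median was 0.42. Without MMPhigh 1 and MMPhigh 2 in turn it was 0.53 and 0.53, and without MMPlow 1 and MMPlow 2 in turn 0.53 and 0.59. With DESeq2 none passed. Crabp2, which carries retinoic acid to its receptors, was at 42.5, 41.3, 84.8 and 111 CPM (1.26, SE 0.23, adjusted p = 0.0175). It followed the gate in the other retained cells too, at 22.9, 22.3, 126 and 115 CPM, and in mesenchyme, at 92.9, 95.3, 185 and 150 CPM. Rarb, a receptor that retinoic acid itself induces, was at 111, 228, 375 and 285 CPM (0.93, SE 0.35, adjusted p = 0.269). Aldh1a3 and the degrading enzymes Cyp26a1 and Cyp26c1 were at or under 1.47 CPM in every library.

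Of the 22 matrix genes, 2 fell and none rose, where 2.33% of all tested genes were called lower. The median was -0.07. Without MMPhigh 1 it was -0.22, and without MMPhigh 2 it was 0.06. Without MMPlow 1 and MMPlow 2 in turn it was -0.02 and -0.09. The 2 that fell were Col4a1 and Col4a2, the basement membrane collagens, whose log2 differences were -1.61 and -1.33 (SE 0.28 and 0.23, adjusted p = 0.0144 and 0.0135). Col4a1 was at 135, 113, 25.1 and 49.4 CPM in Wt1-positive cells and at 594, 551, 45.0 and 38.8 CPM in the other retained cells, in which it also followed the gate. Col3a1, a collagen of mesenchyme, was at 388, 541, 481 and 314 CPM (adjusted p = 0.703).

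Of 24 Hox genes tested, 4 rose and none fell, where 1.78% of all tested genes were called higher. The median was 0.98. None of 31 Hox genes passed the test of the difference from mesenchyme. In the other retained cells the list also followed the gate, with sums of 414, 391, 1504 and 1605 CPM. Hoxb9, a gene of the trunk, was at 18.5, 18.5, 42.4 and 81.1 CPM (1.81, SE 0.37, adjusted p = 0.0256), and Hoxb3 was at 48.1, 41.3, 92.7 and 110 CPM (1.22, SE 0.22, adjusted p = 0.0169). Hoxc9 and Hoxc5 rose by 1.17 and 1.03. Without the cells carrying pan-neuronal genes no Hox gene passed and the median was 0.48. DESeq2 called none of 34. Without MMPhigh 1 the median was 1.31, and without MMPhigh 2 it was 0.38. Without MMPlow 1 and MMPlow 2 in turn it was 0.95 and 0.97.

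Of 7 tested immediate early genes, 2 rose, with a median of 0.26, where 1.78% of all tested genes were called higher. Without MMPhigh 1 the median was 1.79 over 13 tested genes, and without MMPhigh 2 it was 0.07 over 5. Without MMPlow 1 it was 0.85 over 13, and without MMPlow 2 it was 1.42 over 11. Fosb was at 0 in both MMPlow libraries and at 20.4 and 49.4 CPM in MMPhigh, at least 19.5-fold higher against a floor of 3 UMIs over the group. Jun, its partner in the AP-1 complex, was at 92.5, 81.5, 185 and 299 CPM (1.52, SE 0.24, adjusted p = 0.0130). Both rose in mesenchyme also, where Jun differed by 1.52, and genes of this kind respond to tissue dissociation and sorting. Whether handling differed between the fractions was not tested.

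The sort was on mitochondrial potential, so genes of energy metabolism were examined last. None of the 13 mitochondrially encoded genes, 76 nuclear genes of oxidative phosphorylation, 77 mitochondrial ribosome genes, 17 genes of the citric acid cycle or 13 glycolysis genes tested passed, with medians of -0.12, -0.12, -0.13, -0.07 and -0.16. Of 80 cytosolic ribosome genes, Rps12 and Rplp1 fell, a share near the 2.33% of all tested genes called lower, and both calls were lost under most alternatives (12 and 10 of 17). Without MMPhigh 2, the medians of the oxidative phosphorylation and cytosolic ribosome genes were -0.19 and -0.24, in place of -0.12 and -0.17. Without MMPhigh 1, the median of the mitochondrially encoded genes was 0.04. With at least 5000 UMIs per cell, 1 of these 13 was higher, with a median of 0.30 in place of -0.12. In that fit 61 of 8539 tested genes were called higher. None of 31 S phase genes and 36 genes of G2 and M phase passed. On simulated data for this comparison, 43.2% of genes changed by 1 on the log2 scale were recovered, and 93.0% of those changed by 2. There were 10 false calls. The simulated spread of a gene was set by its level alone, so genes whose UMIs rest on few cells may be recovered less often. Changes of the smaller size may be missed, and larger ones too.

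The share of UMIs from mitochondrially encoded genes had medians of 2.94%, 3.55%, 3.14% and 3.66% over the Wt1-positive cells of the 4 libraries. MMPlow had a mean of 3.24% ± 0.431 (SD, n = 2). MMPhigh had a mean of 3.40% ± 0.365 (SD, n = 2), and the groups overlapped (exact two-sided permutation p = 0.667). Among cells with at least 5000 UMIs, the medians were 1.78%, 2.31%, 3.24% and 3.66%, with both MMPhigh values above both MMPlow values (exact permutation p = 0.333, the smallest possible). In mesenchyme they were 2.63%, 3.12%, 3.27% and 3.58%, and in the other retained cells 4.12%, 4.40%, 3.30% and 3.65%.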

How the data were processed

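The files hold whole-number counts of UMIs per gene and barcode, deposited by the authors without normalization. Per the file headers they came from Cell Ranger 7.0.1, while the submitters' processing notes name Cell Ranger 2.1.1 and mm10. The cells, groups and gene lists were chosen with earlier results of these data known. Doublets were not called; cells above the 95th percentile of UMIs of their library were left out as an alternative. UMIs were summed per library over the cells of a type, since cells are not replicates, and tested with edgeR 4.0.16 under R 4.3.3 (TMM, filterByExpr, robust quasi-likelihood F-test, two-sided, Benjamini-Hochberg over all tested genes), and as an alternative with DESeq2 1.42.0. Log2 differences are MMPhigh over MMPlow. The interaction with mesenchyme had the library as a block. Genes were named by rule: the 8 largest rises and falls that passed, did not overlap and reached 50 CPM in the higher group, leaving out marker lists of other cells; the 6 largest each way that also passed the interaction with the same sign; up to 4 highest and 4 called genes of each list; and the 15 largest ratios over other cells. Of the names by these rules, the better known are printed, and some further list members were named after their values were seen. Neural progenitor, neural crest, spinal interneuron, germ cell, muscle, cartilage and hepatocyte lists were also checked: 0 of 376 thinned cells carried 3 genes of the first 6, and 2 did of the hepatocyte list. The test was tried on simulated data with known changes. Same-numbered libraries did not deviate together (r = -0.06 over 9531 genes), so the numbers were not used as pairs. Some genes of the lists are not reported here by name. The interaction with mesonephric epithelium was not fitted, because its libraries held 2, 3, 9 and 25 cells.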

Additional observations from a re-analysis of the deposited data

Results flagged for a closer look

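The difference between gates was other in Wt1-positive cells than in Pdgfra-type mesenchyme for 40 genes by edgeR's interaction test, each at an adjusted p under 0.05. Among the genes named above, the difference was higher in Wt1-positive cells for Lingo2 (2.70), Egfem1 (2.57), Eya1 (1.96), Ebf1 (1.52), Pdgfra (1.49), Prrx1 (1.45), Dnm3os (1.20) and Ank3 (0.98), on the log2 scale. Pdgfra and Prrx1 helped to choose the mesenchyme, so their values there are not independent of that choice. It was lower for Cntn5 (-4.90), Gpm6a (-3.35), Lhx9 (-3.13), Bnc1 (-2.82), Gabrb1 (-2.39), Wdr17 (-2.26), Ppp2r2b (-1.54) and Rab11fip2 (-1.51). Eya1 passed this test with an adjusted p of 0.0243, although its difference within Wt1-positive cells did not pass.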

How the results depend on the processing

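The difference in the share of Wt1-positive cells, 0.198 percentage points, turned to -0.242 with the rule on thinned cells, -0.0364 without Nkain2 and Alcam in the panel and -0.228 with 20 panel UMIs per 10000, and ranged from -0.135 (without MMPhigh 2) to 0.532 (without MMPhigh 1). The difference in median mitochondrial share, 0.160 points, was 1.40 with at least 5000 UMIs per cell and ranged from -0.145 (without MMPlow 1) to 0.464 (without MMPlow 2), with -0.0987 without MMPhigh 2. The 391 genes became 153 with DESeq2, 237 with 20 panel UMIs per 10000, 108 with at least 5000 UMIs, 78 in thinned cells, 168 with a filter of 50 CPM, 997 with no filter and 243 without the cells of highest UMIs, and 2 (without MMPlow 2) to 1007 (without MMPhigh 1) with a library left out. The share of calls that were higher was 43.2%, but 57.7% in thinned cells, 56.5% with at least 5000 UMIs and 31.7% without cells carrying pan-neuronal genes. The 40 interaction genes became 19 in thinned cells and 7 with no library block, and 13 (without MMPlow 2) to 393 (without MMPhigh 2) with a library left out. The cause of these changes was not tested.

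With the replicate number as a block, 345 genes passed, 299 of them shared with the 391, and the interaction gave 15 with this block in place of the library block. The share differed by 0.198 points (exact permutation p = 1.00) and the mitochondrial share by 0.160 (exact permutation p = 0.5) in this pairing. Of 53 named genes that passed, 46 kept their call under the block, 30 with DESeq2, 14 without MMPlow 1 and 2 without MMPlow 2. With a library left out, Gata4 ranged from -1.93 (without MMPhigh 1) to 0.11 (without MMPhigh 2), and it was at -2.49 without Nkain2 and Alcam in the panel. Gata6 was at 0.29 with 20 panel UMIs per 10000 and -0.59 without Nkain2 and Alcam, and with a library left out it ranged from -0.38 (without MMPhigh 1) to 0.31 (without MMPhigh 2). Alternatives without Upk3b-positive cells and without cells carrying endothelial or blood genes were chosen after seeing the data. The limits are 30 and 47 MMPhigh cells, 2 libraries a group, and a depth that differed with the gate.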
